A study of Mus musculus with 4 samples.

Results

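The genes that encode the subunits of receptors for glutamate, GABA, glycine, acetylcholine, dopamine and serotonin were examined in RNA-seq of whole mouse pancreas at E18.5, shortly before birth. They were taken by their symbols, as every *Gria*, *Grik*, *Grid*, *Grin*, *Grm*, *Gabr*, *Glra*, *Glrb*, *Chrm*, *Chrn*, *Drd* and *Htr* subunit gene of the table, which gave 92 of 24391 genes. Of the 92, 2 carry a matching prefix without being a receptor subunit, namely *Grid2ip*, which encodes a protein that binds a delta receptor, and *Grin1os*, a transcript opposite *Grin1*. There were 2 control libraries, whose embryos are labelled Pdx1Cre with RESTwt, and 2 Rest pKO libraries, labelled Pdx1Cre with RESTLoxP/LoxP. By their labels, which were not checked against another source, all embryos carried the *Pdx1-Cre* transgene and came from a mixed strain with C57BL/6. In this model Cre recombinase acts in cells derived from the *Pdx1*-expressing pancreatic epithelium and removes exon 4 of *Rest* there, while mesenchyme, vessels, nerves and blood cells keep the gene. Nothing in the labels says whether the 2 libraries of a genotype came from separate embryos, or how many embryos each library held. Their *Xist* and Y-linked counts, described below, mark them as opposite in sex, so they were not repeats of 1 embryo. The p-values measure the spread between these libraries, which includes a difference in sex.

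REST, the RE1-silencing transcription factor, binds a DNA element called RE1 and recruits repressors of transcription. It is best known for holding neuronal genes silent in cells that are not neurons, and receptor and ion channel genes are among its classic targets. Ionotropic receptors are ion channels assembled from several subunits, so a cell needs a compatible set to make one. AMPA, kainate and NMDA receptors (*Gria*, *Grik*, *Grin*) are opened by glutamate, GABA-A receptors (*Gabr*) by GABA, glycine receptors (*Glra*, *Glrb*) by glycine and nicotinic receptors (*Chrn*) by acetylcholine. Metabotropic glutamate (*Grm*), muscarinic (*Chrm*), dopamine (*Drd*) and most serotonin (*Htr*) receptors instead act through G proteins. In the pancreas, islet cells are known to carry GABA and glutamate receptors, and acinar and beta cells respond to vagal acetylcholine through the muscarinic receptor M3.

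To show which receptor genes have an RE1-like sequence near their start, the annotated gene starts (NCBIM37, mm9) were searched 5 kb to each side on both strands. The letters sought were CAGCACC, then any 2 bases, then GGACAG, and 1 mismatch among the 13 fixed letters was allowed. A match was present at 20 of the 92 genes (21.7%), against 999 of the 20675 genes placed in the annotation (4.83%). All fixed letters matched at 7 of the 92 genes, against 137 of all genes placed (0.663%). The sequences of 5 of these are printed here, together with those of *Gria2* and *Grm6*, which had the 2 lowest p-values between genotypes and matched with 1 mismatch. Each is 30 bases read 5′ to 3′ on the strand of the match, with the matched stretch in capitals.
Chrm4: gcaggttCAGCACCTCGGACAGccccacac
Chrnb2: gcggcttCAGCACCACGGACAGcgctccgt
Drd2: cgggattCAGCACCAAGGACAGcagaaagc
Grin1: tacgcttCAGCACCTCGGACAGcacccgcc
Htr1a: ttgggttCAGCACCCGGGACAGctctgtgt
Gria2: ttcgatttTAGCACCGCGGACAGcgctttg
Grm6: acaggctgCAGCACCTGGGAGAGcgcaccc

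In *Chrnb2* (chr3:89568372-89568401, minus strand) and *Grin1* (chr2:25174530-25174559, minus strand) the match lay in an annotated untranslated region, 167 and 162 bp downstream of the gene start. In *Drd2* (chr9:49149297-49149326, minus strand) it lay in an intron, 580 bp downstream of the start. In *Chrm4* (chr2:91761486-91761515, minus strand) and *Htr1a* (chr13:106232861-106232890, minus strand) it lay upstream, at -845 and -897 bp from the start. The *Gria2* match (chr3:80606905-80606934, plus strand) lay at -207 bp and the *Grm6* match (chr11:50659479-50659508, plus strand) at -4693 bp, nearest to the end of the searched window. Over all 20 genes, 8 matches lay upstream of the gene, 7 in an intron, 4 in an untranslated region and 1 in an exon outside them. Such a match describes letters in the genome and was not taken as a bound site. The plot of match positions sets each match against the gene's counts.

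**Figure D1:**
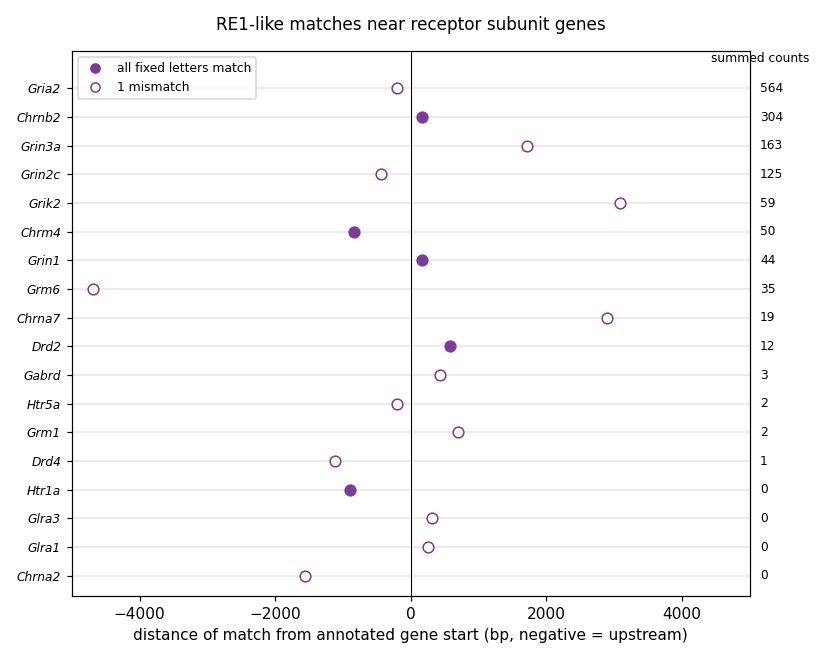
Distance of the RE1-like match from the annotated gene start in bp for 18 receptor genes with a match, filled where all fixed letters matched and open where 1 differed, with the counts summed over the 4 libraries at the right. *Grm6* at -4693 bp is the farthest from its start, and 10 of the 18 genes have fewer than 20 counts.

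The libraries held 16936759 and 18644088 counts in control 1 and 2, and 20738162 and 24134100 in Rest pKO 1 and 2. Levels are given as CPM, the count divided by the TMM-scaled library size and multiplied by 1000000. The targeted gene *Rest* had 14.2 and 15.7 CPM in the controls, against 12.1 and 9.15 CPM in Rest pKO. Both Rest pKO libraries were under both controls, with a log2 fold change of -0.49 (SE 0.23), and the difference did not pass the test (edgeR adjusted p = 0.593). These counts include every exon and also cells that keep the gene, so they do not measure the deletion of exon 4 itself. *Xist* was high in 1 library of each genotype, control 1 with 32596 and Rest pKO 2 with 12433 counts against 9 and 17 in the others, and the Y-linked genes showed the opposite pattern. Markers of islet cells (15 of 15 tested with a log2 fold change above 0), autonomic neurons (10 of 10) and Schwann cells (7 of 7) were counted higher in Rest pKO, and those of mesenchyme (7 of 8) and mesothelium (6 of 6) lower. In whole-organ RNA, fewer cells of a type and less RNA per cell cannot be told apart.

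Receptor subunit genes were a very small part of the RNA. They summed to 3028, 3354, 3636 and 2991 counts in control 1, control 2, Rest pKO 1 and Rest pKO 2, which is 0.0124% to 0.0180% of all counts. Relative to each total, the sum was close in 3 libraries, and Rest pKO 2 stood lowest. A sum of 20 or more counts over the 4 libraries was reached by 38 of the 92 genes (41.3%), against 62.9% of all genes in the table. Another 40 had between 1 and 19 counts, and 14 (15.2%) had none, against 24.3% of all genes. Nearest to that limit were *Chrna5* with 16, *Grid1* with 18 and *Chrna7* with 19 counts below it, and *Htr2a* and *Htr3a* with 20 each above it. A count of 0 allows a level of up to 0.137 to 0.178 CPM in these libraries (3 counts, counting error only).

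**Figure D2:**
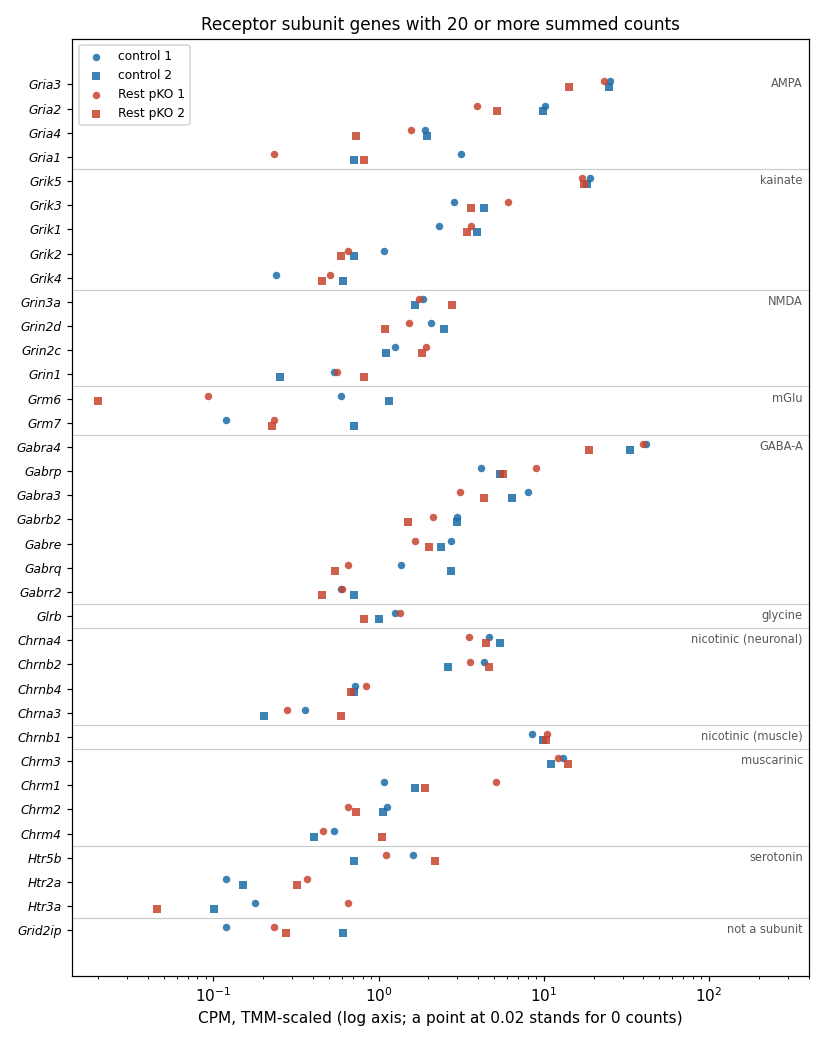
CPM (TMM-scaled, log axis) in each library of 36 receptor genes with 20 or more summed counts, grouped by receptor family, with controls in blue, Rest pKO in red, replicate 1 as circles and replicate 2 as squares. *Gabra4* and *Gria3* have the highest CPM, which is not corrected for gene length, and in *Gria2*, *Gabra3*, *Gabrq* and *Grm6* both red points lie left of both blue points.

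Levels of different genes were compared as CPM per kb of annotated exon. On this scale the order of mean levels over the 4 libraries was *Gabra4* at 8.10, *Chrm3* at 6.45, *Grik5* at 4.69, *Chrnb1* at 3.85, *Gria3* at 2.21, *Gabrp* at 1.79, *Gabra3* at 1.40 and *Gria2* at 1.04 CPM per kb. The annotation gives *Chrm3* an exon length of only 1949 bp, against 6271 bp for *Chrm1* and 6053 bp for *Chrm2*. Its place in the order and its share of the muscarinic sum depend on that length. The ranges over libraries of *Gabra4* and *Chrm3* overlapped, as did those of each neighbouring pair from *Gria3* down to *Gria2*, while *Chrm3*, *Grik5*, *Chrnb1* and *Gria3* had ranges apart from each other. In each of the main families 1 subunit carried most of the signal: *Gabra4* made up 50.4% to 63.7% of the GABA-A sum per kb, *Gria3* 52.9% to 73.1% of the AMPA sum, *Grik5* 69.8% to 80.8% of the kainate sum and *Chrm3* 85.1% to 92.4% of the muscarinic sum. The stacked shares per library show the same leading subunit in every library of these families, while the NMDA and neuronal nicotinic families were divided among several.

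**Figure D3:**
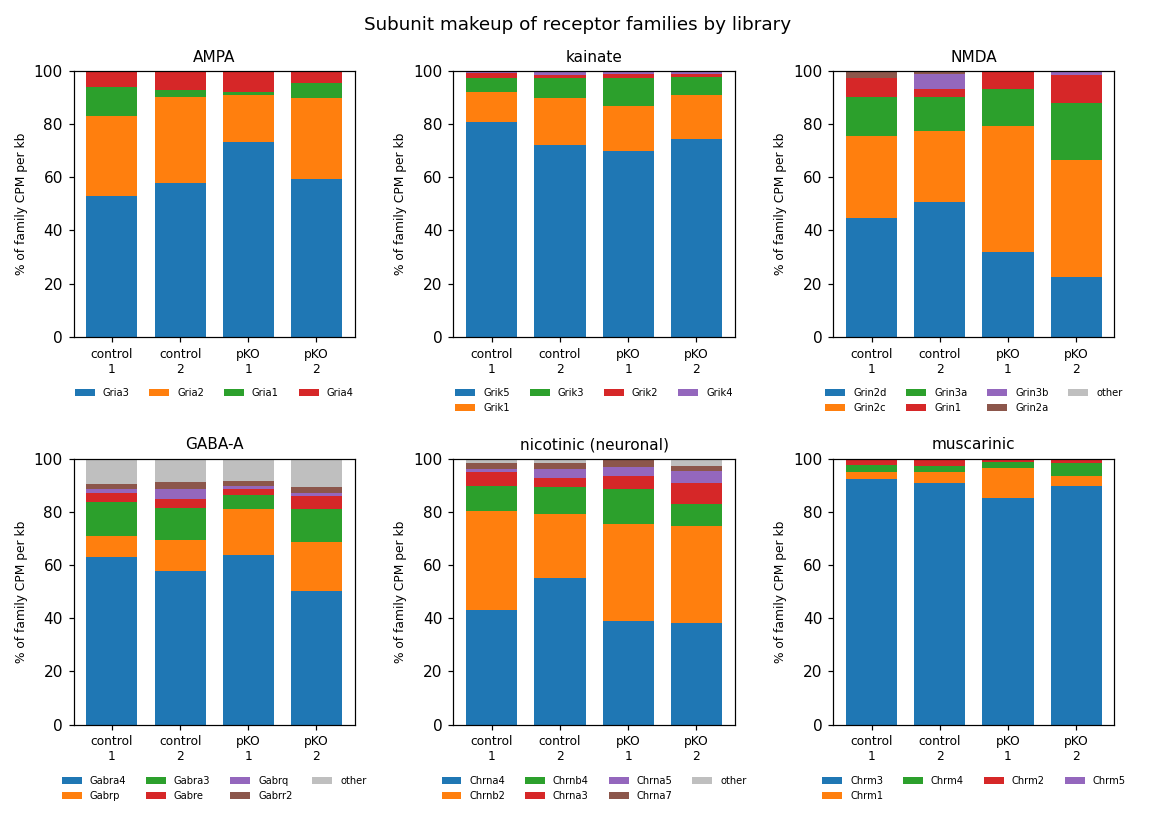
Share of each subunit in its receptor family's summed CPM per kb, in percent, for each of the 4 libraries (pKO, Rest pKO; other, the remaining subunits of the family). *Gabra4*, *Gria3*, *Grik5* and *Chrm3* hold over 50% of their families in every library. *Grin2d* holds the largest NMDA share in the controls and *Grin2c* in Rest pKO. The size of the *Chrm3* share depends on its short annotated length.

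To ask whether loss of *Rest* in the epithelium went with a change in receptor genes, Rest pKO was compared with control by edgeR's quasi-likelihood test over all 14550 genes that passed its filter on low counts. Of the receptor genes 33 passed that filter, and *Chrna3*, *Htr2a*, *Htr3a*, *Grm7* and *Grid2ip* had 20 or more counts without passing it. No receptor gene was called at an adjusted p of 0.05 by edgeR, where the lowest adjusted p was 0.383, or by DESeq2, where it was 0.143 among the 29 to which DESeq2 gave an adjusted p, *Grm6* not being one of them. Over all genes tested, edgeR called 0% higher and 0.0275% lower, and DESeq2 0.182% higher and 0.533% lower. At an unadjusted p of 0.05, edgeR had 1 receptor gene higher (*Chrm1*) and 4 lower (*Gria2*, *Grm6*, *Gabrq* and *Gabra3*). Of all genes tested by edgeR, 3.26% were higher and 5.61% lower. DESeq2 gave an unadjusted p to 78 receptor genes, of which 1 was higher and 5 lower, adding *Gria1*. Of all 18476 genes with such a p, 1.72% were higher and 3.86% lower. Among the 33, 15 (45.5%) were higher in Rest pKO by their log2 fold change and 18 (54.5%) were lower, where all genes gave 49.5% and 50.5%. Their median log2 fold change was -0.11, against a median of -0.0048 over all genes tested. Groups that did not overlap were seen in 6 of the 33 (18.2%) with Rest pKO higher, where all genes gave 21.5%, and in 13 (39.4%) with Rest pKO lower, where all genes gave 21.2%. The 95% interval of the log2 fold change included 0 for 28 of the 33. Its half-width had a median of 0.93 and was 0.42 at its narrowest. These intervals are not adjusted for the number of genes tested. With 2 libraries per genotype, differences larger than these half-widths also did not pass, such as -1.13 in *Gria2* and -4.09 in *Grm6*.

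**Figure D4:**
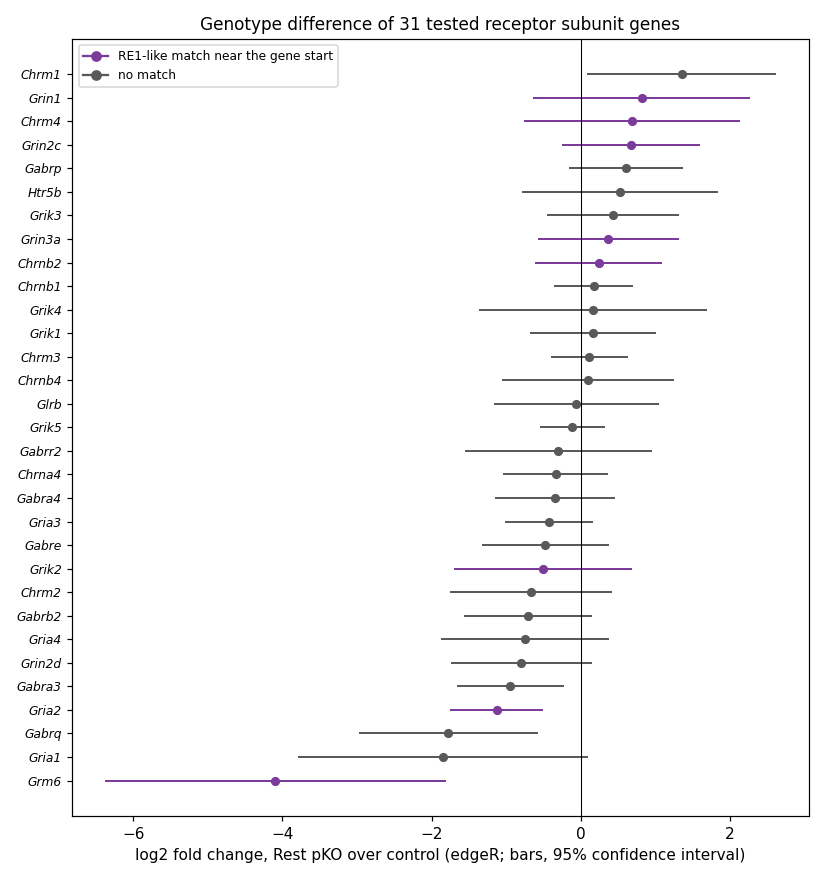
Log2 fold change of Rest pKO over control from edgeR (points) with its 95% confidence interval (bars) for 31 of the receptor genes tested, in purple where an RE1-like match lies near the gene start. The intervals of *Chrm1* above 0 and of *Grm6*, *Gabrq*, *Gria2* and *Gabra3* below 0 leave out 0, and none of these passed after adjustment over all genes.

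Among AMPA receptor genes, all 4 had a log2 fold change below 0, and *Gria2* had the lowest p of all receptor genes. *Gria2* (chromosome 3, 80488858 to 80606713) encodes the subunit that makes AMPA receptors impermeable to calcium once its transcript is edited. It was counted 170 and 195 times in the controls, against 85 and 114 times in Rest pKO, or 10.1 and 9.83 against 3.94 and 5.19 CPM. Means were 9.97 ± 0.20 CPM in control and 4.56 ± 0.89 CPM in Rest pKO (SD, n = 2 per genotype). Each Rest pKO library was lower than either control, by a gap larger than the spread within either genotype. The log2 fold change was -1.13 (SE 0.26), with an unadjusted p of 0.00297 and an adjusted p of 0.383 from edgeR's fit across all genes, so it was not called.

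*Gria3* (chromosome X, 38754031 to 39031778) was the most abundant AMPA subunit, with 425 and 491 counts in the controls, against 496 and 313 in Rest pKO, or 25.3, 24.7, 23.0 and 14.3 CPM. Its groups did not overlap, with Rest pKO 1 just below the controls and Rest pKO 2 well below (log2 fold change -0.43, SE 0.25, adjusted p = 0.644 by edgeR). *Gria4*, at 32, 39, 34 and 16 counts, was lowest in Rest pKO 2. *Gria1*, at 53, 14, 5 and 18 counts, had overlapping groups and a log2 fold change of -1.84 (SE 0.83) that did not pass. Without control 1 it was -0.43, and it was -1.21 without Rest pKO 1 and -3.005 without Rest pKO 2. Without control 2 it was called by edgeR, at -2.57 with an adjusted p of 0.0231, in a fit that takes the lone control to vary like the Rest pKO libraries and called 0.49% of all genes lower. The family's summed level was 40.5 and 37.2 CPM in the controls, against 28.7 and 21.0 CPM in Rest pKO, with a median log2 fold change of -0.94 over its 4 genes. Mesenchyme markers, which summed to 8670 and 7743 CPM in the controls, against 4590 and 7202 CPM in Rest pKO, were lowest in Rest pKO 1, as was *Gria2*. Mesothelium markers were likewise lowest there, with 337, 278, 141 and 219 CPM in the same order, and the part of either in the AMPA values was not tested.

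No kainate receptor gene passed the test, and the 95% interval of each of the 5 included 0. *Grik5* (chromosome 7, 25794872 to 25857388), which encodes the high-affinity subunit GluK5, had 19.1 and 18.3 CPM in the controls, against 17.1 and 17.6 CPM in Rest pKO. Its log2 fold change of -0.11 had the narrowest interval of the 33 genes, from -0.53 to 0.31. *Grik3* was counted 48, 86, 131 and 80 times and *Grik1* 39, 78, 78 and 75 times in control 1, control 2, Rest pKO 1 and Rest pKO 2, with overlapping groups in both. *Grik2* and *Grik4* stayed at or below 18 counts in every library. In *Grik5* and *Grik2* the Rest pKO libraries had a lower CPM than the controls without overlap, and in *Grik4* the groups overlapped. The family sum was 25.6, 27.9, 27.9 and 25.7 CPM, with the genotypes intermingled. The delta receptor genes were too low to be tested, with *Grid1* at 4, 2, 4 and 8 counts.

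The NMDA receptor genes were low throughout, and *Grin2b*, a main partner of *Grin1* in embryonic brain, had no count. *Grin2d* was counted 35 and 49 times in the controls, against 33 and 24 times in Rest pKO, and *Grin2c* 21 and 22 times against 42 and 40 times. Groups did not overlap for either gene in CPM, lower for *Grin2d* (log2 fold change -0.80, SE 0.40) and higher for *Grin2c* (0.68, SE 0.39), and neither passed the test. The share of *Grin2d* in the NMDA sum per kb was 44.5% and 50.9% in the controls, against 32.0% and 22.7% in Rest pKO, and that of *Grin2c* 31.1% and 26.6% against 47.3% and 44.0%. *Grin1*, which every functional NMDA receptor needs, had only 9 and 5 counts in the controls, against 12 and 18 in Rest pKO, a log2 fold change of 0.82 (SE 0.62) that did not pass. Part of *Grin1* (13.5% of its exon bases) lies opposite another transcript, and since the strand setting of the counting is not stated, reads of the pair cannot be told apart. That transcript, *Grin1os*, had only 0, 2, 0 and 1 counts, with 45.2% of its own exon bases in the overlap. *Grin3a*, at 31, 33, 38 and 61 counts, was higher in Rest pKO 2 than in the other libraries. *Grin1*, and the genes outside the naming rule that are given values below, were chosen after their values were seen.

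Of the metabotropic glutamate receptor genes only *Grm6* was tested, and it had the most negative log2 fold change of all 33. *Grm6* (chromosome 11, 50664187 to 50679710) encodes mGluR6, known from the bipolar cells of the retina. It was counted 10 and 23 times in the controls, against 2 and 0 times in Rest pKO. The groups lay apart, although the counts were few in every library. The fitted log2 fold change was -4.09 (SE 0.97), with an unadjusted p of 0.00346 and an adjusted p of 0.396 in edgeR's fit across all genes. The counts pooled by genotype, 33 and 2, give a ratio of 0.0510 per TMM-scaled library size. Its exact 95% interval of 0.00593 to 0.199 covers counting error only. The log2 fold change was -7.12 without Rest pKO 1 and -3.16 without Rest pKO 2, and without control 2 the gene fell under the filter on low counts and had no value. It was called by edgeR without control 1 (adjusted p = 0.0154), a fit that takes the lone control to vary like the Rest pKO libraries and called 1.05% of all genes lower. With sex as a further term it was called too (adjusted p = 0.00355), where 1.29% of all genes were called lower. Of its exon bases 11% lie opposite the transcript *Gm12660*, from which reads cannot be told apart. *Grm7* had 2 and 14 counts in the controls, against 5 in each Rest pKO library, *Grm8* had none, and *Grm2* was seen only as 6 counts in Rest pKO 1.

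GABA-A receptor genes carried the largest summed level of the receptor families, in CPM as well as per kb, with 68.4 and 59.3 CPM in the controls, against 63.5 and 38.2 CPM in Rest pKO. Of the 9 tested, 2 lay above 0 on the log2 fold change scale and 7 below, the median being -0.35. *Gabra4* (chromosome 5, 71960973 to 72049547), an alpha subunit of extrasynaptic receptors in brain, set most of this sum. It was counted 702 and 658 times in the controls, against 863 and 414 times in Rest pKO, or 41.8, 33.2, 40.0 and 18.8 CPM. Rest pKO 1 lay among the controls and Rest pKO 2 far below, and the log2 fold change of -0.35 (SE 0.34, adjusted p = 0.746 by edgeR) turned to 0.10 without Rest pKO 2.

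*Gabra3* and *Gabrq* lie on chromosome X, at 69678020 to 69902187 and 70070517 to 70087941, and encode the alpha3 and theta subunits. *Gabra3* was counted 134 and 128 times in the controls, against 67 and 96 times in Rest pKO, or 7.97 and 6.45 against 3.11 and 4.37 CPM. The Rest pKO libraries were both below the controls (log2 fold change -0.95, SE 0.30, unadjusted p = 0.0149 and adjusted p = 0.463 by edgeR). *Gabrq* was counted 23 and 54 times in the controls, against 14 and 12 times in Rest pKO, or 1.37 and 2.72 against 0.649 and 0.546 CPM. The groups again lay apart, with a wide gap between the controls themselves (log2 fold change -1.77, SE 0.51, unadjusted p = 0.00893 and adjusted p = 0.433 by edgeR). *Gabre*, which encodes the epsilon subunit, had 46 and 47 counts in the controls, against 36 and 44 in Rest pKO, and its log2 fold change of -0.47 (SE 0.36) did not pass.

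*Gabrb2* encodes a beta subunit, a kind that every typical GABA-A receptor contains. It was counted 50, 59, 46 and 33 times in control 1, control 2, Rest pKO 1 and Rest pKO 2. Both Rest pKO libraries had a lower CPM than the controls, with a log2 fold change of -0.71 (SE 0.36) that did not pass. *Gabrp*, which encodes the pi subunit known from epithelia outside the nervous system, had 70 and 108 counts in the controls, against 194 and 124 in Rest pKO, or 4.16 and 5.44 against 8.99 and 5.65 CPM. Its groups did not overlap, by a small margin between control 2 and Rest pKO 2, and its log2 fold change of 0.60 (SE 0.32, adjusted p = 0.635 by edgeR) did not pass. *Gabrg1* and *Gabrg3*, which encode gamma subunits, had at most 3 counts in any library.

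For glycine receptors, *Glrb*, the beta subunit that anchors the receptor to gephyrin, was counted 21, 20, 29 and 18 times, with overlapping groups and a log2 fold change of -0.06 (SE 0.47). The ligand-binding alpha subunit genes *Glra1*, *Glra2*, *Glra3* and *Glra4* had 0 counts in all 4 libraries.

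Muscarinic receptor genes were led by *Chrm3* (chromosome 13, 9876381 to 9878329), the receptor through which acetylcholine drives enzyme secretion from acinar cells. *Chrm3* had 13.1 and 11.04 CPM in the controls, against 12.1 and 14.02 CPM in Rest pKO. The groups overlapped, with a log2 fold change of 0.12 (SE 0.22) and an interval from -0.39 to 0.62. Acinar markers, 14 of 15 with a log2 fold change above 0, summed to 261356, 240641, 246220 and 346374 CPM and were highest in Rest pKO 2, as was *Chrm3*, and their part in its level was not tested. *Chrm1* (chromosome 19, 8738495 to 8758077), a receptor best known from brain and ganglia, was counted 18 and 33 times in the controls, against 111 and 42 times in Rest pKO, or 1.07 and 1.66 against 5.14 and 1.91 CPM. Rest pKO 1 stood far above the other 3 libraries and Rest pKO 2 was close to control 2. The log2 fold change was 1.35 (SE 0.54), with an unadjusted p of 0.0373 and an adjusted p of 0.535 from edgeR. Without Rest pKO 1 it was 0.48. Of the exon bases of *Chrm1* 5.2% lie opposite a transcript annotated as 7SK, from which reads cannot be told apart. *Chrm2* had 19 and 21 counts against 14 and 16, and *Chrm4* 9 and 8 against 10 and 23.

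Neuronal-type nicotinic receptor genes were led by *Chrna4* and *Chrnb2*, which together form the main receptor of this class in brain. *Chrna4* was counted 78 and 108 times in the controls, against 76 and 98 times in Rest pKO, or 4.64 and 5.44 against 3.52 and 4.46 CPM. *Chrnb2* was counted 73 and 52 times in the controls, against 77 and 102 times in Rest pKO, or 4.34 and 2.62 against 3.57 and 4.64 CPM. The log2 fold changes were -0.34 (SE 0.29) and 0.24 (SE 0.36), and neither gene passed the test. The ganglionic pair *Chrna3* (6, 4, 6 and 13 counts) and *Chrnb4* (12, 14, 18 and 15 counts) was far lower. Markers of autonomic neurons summed to 43.7 and 39.5 CPM in the controls, against 61.4 and 72.1 CPM in Rest pKO, while the defining gene *Phox2a* was near 0, at 1, 3, 6 and 4 counts. The part of nerve cells in the nicotinic values was not tested.

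*Chrnb1* (chromosome 11, 69597538 to 69609445), the beta subunit of the muscle receptor, was counted 143, 195, 224 and 226 times, or 8.51 and 9.83 against 10.4 and 10.3 CPM. Its groups did not overlap, but the log2 fold change of 0.17 (SE 0.22, interval from -0.35 to 0.69) did not pass. Its partners in the muscle receptor were nearly absent from 3 libraries and had a few counts in Rest pKO 2. There *Chrng* had 7, *Chrnd* 6 and *Chrna1* 3 counts, against at most 1 count of each in the other libraries, and *Chrne* had none. Skeletal muscle markers were also highest in that library, at 64.1, 62.5, 52.4 and 196 CPM in the same order, with *Myh3* counted 5, 1, 12 and 228 times. The part of muscle tissue in these counts was not tested.

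Dopamine receptor genes and most serotonin receptor genes were at or near the limit of detection. *Htr5b* was the highest serotonin receptor gene with 27, 14, 24 and 48 counts, overlapping groups and a log2 fold change of 0.53 (SE 0.56). *Htr2a* had 2 and 3 counts in the controls, against 8 and 7 in Rest pKO, and *Htr3a*, the channel-forming serotonin receptor, had 14 counts in Rest pKO 1 and at most 3 elsewhere. *Htr1a*, *Htr1f*, *Htr2c* and *Htr6* had no count. *Drd2*, the highest dopamine receptor gene, had 5, 0, 1 and 6 counts, without a pattern by genotype.

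The receptor genes with an RE1-like match were compared with those without one as a description. Of the 20 with a match, 11 had fewer than 20 counts, and *Chrna2*, *Glra1*, *Glra3* and *Htr1a* had none. Of the 9 that were tested, 5 had a log2 fold change above 0 and 4 below, with a median of 0.24, and of the 24 tested without a match 10 were above 0, with a median of -0.21. Over all genes, 389 of 645 tested with a match had a log2 fold change above 0 (60.3%, median 0.10), as did 49.0% of the 12691 placed genes tested without one (median -0.0082). Among tested receptor genes in which all fixed letters matched, *Grin1*, *Chrm4* and *Chrnb2* had log2 fold changes of 0.82, 0.69 and 0.24, and the interval of each included 0. Both genes with the lowest p, *Gria2* and *Grm6*, carry a match and were counted lower in Rest pKO.

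Genes that act with these receptors gave no call in either tool. Of 40 auxiliary subunits, chaperones and scaffolds 30 were tested, of which 13 lay above 0 in log2 fold change and 17 lay below (median -0.09). At an unadjusted p of 0.05, 3 of the 30 (10%) were lower and 0 higher, where all genes gave 5.61% and 3.26%. The 3 were *Shank1*, *Shank2* and *Shank3*, scaffolds of glutamatergic synapses. *Shank1* was counted 139 and 100 times in the controls, against 78 and 53 times in Rest pKO (log2 fold change -1.14, SE 0.36, adjusted p = 0.464 by edgeR). *Shank2* had 29.3 and 26.4 against 22.0 and 17.7 CPM and *Shank3* 15.4 and 21.4 against 11.5 and 13.1 CPM. In each of these the Rest pKO libraries were both under the controls.

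On the side of the transmitters, 6 of 8 tested genes of glutamate packaging, transport and glutaminase had a log2 fold change above 0. *Gls2*, a glutaminase that makes glutamate from glutamine, was counted 558 and 865 times in the controls, against 1466 and 1345 times in Rest pKO. That was 33.2 and 43.6 against 67.9 and 61.2 CPM, with a log2 fold change of 0.75 (SE 0.20) and an adjusted p of 0.424 by edgeR. *Slc1a2*, a glutamate transporter, had 35 and 31 counts against 16 and 17. For GABA and glycine, 4 of 6 tested genes were above 0, and none had an unadjusted p under 0.05. *Gabbr1*, a subunit of the metabotropic GABA-B receptor, had 20.8 and 24.2 CPM in the controls, against 19.6 and 15.6 CPM in Rest pKO, and its partner *Gabbr2* had 9, 6, 9 and 30 counts. The glycine transporter gene *Slc6a9* had 54.6 and 77.3 against 89.7 and 74.6 CPM, and *Gad1*, which makes GABA, 33 and 26 against 48 and 54 counts. *Chat*, which makes acetylcholine, had no count. Of 9 tested monoamine genes 6 were above 0. *Slc18a2*, a vesicular monoamine transporter, had 52 and 97 counts in the controls, against 42 and 28 in Rest pKO. *Maob*, which breaks monoamines down, had 207 and 193 against 384 and 388. The groups lay apart in *Gls2*, *Slc1a2*, *Slc18a2* and *Maob*, and none passed after adjustment. Islet markers, which summed to 3364 and 2262 CPM in the controls, against 4981 and 7012 CPM in Rest pKO, were higher in the same libraries as *Gls2*, *Gad1* and *Maob*, and their part in these values was not tested.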

How the data were processed

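Whole pancreas RNA from 2 control and 2 Rest pKO samples at E18.5 was analysed. The authors deposited a table of raw gene counts, made with STAR alignment to mm9 and featureCounts 1.5 (the version is from the submitters' processing notes). The strand setting, and whether pairs or reads were counted, are not given in the sources used here. The study's methods name more pancreases per genotype than the libraries analysed here. Genotype was tested by edgeR 4.0.16 (filterByExpr, TMM, glmQLFit, glmQLFTest) in R 4.3.3, as the only term, with Benjamini-Hochberg adjustment over all genes tested. CPM use TMM-scaled library sizes, and SE is the log2 fold change divided by the square root of F. The pipeline was tested on simulated counts with a single dispersion for all genes and large changes placed only in genes of higher counts. That test does not show how well changes in genes of low counts are found. Ratios of pooled counts have exact intervals (scipy 1.17.1). Lengths, positions and sequences come from the NCBIM37 annotation and genome. The study's methods name UCSC gene annotations for the counting, so the lengths used here may differ from those counted.

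Receptor genes, pathway lists and marker lists were chosen with earlier results of these data known. Values in every library were given for up to 30 receptor genes: any called, then those with an unadjusted p under 0.05, then the highest of each family, then by summed counts, and for up to 4 genes of each pathway list by p. The alternatives were DESeq2 size factors, TMM without acinar and red cell genes, 3 other filters on low counts, DESeq2 1.42.0 (the method of the study), limma-voom (limma 3.58.1), a replicate block, leaving out each library, and, added after seeing the data, sex as a term. Markers of the 13 cell types and tissues that were not mentioned beside a result are given in the closing section. Over the genes tested, the difference between control 1 and control 2 had a correlation of 0.0652 with that between Rest pKO 1 and Rest pKO 2. The labels give no source of pairing, so the replicate numbers were not used to pair. Values of some receptor and marker genes are not reported here and are left out of the plots, and counts over all genes of a family or list include them.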

Additional observations from a re-analysis of the deposited data

How the results depend on the processing

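The count of receptor genes called higher was 0 under every alternative run, and that called lower was 0 except for 1 with sex as a term (*Grm6*) and a range of 0 to 1 when 1 library was left out (*Grm6* without control 1, *Gria1* without control 2). Over all genes, those called lower rose from 4 to 187 with sex as a term, 158 without control 1 and 73 without control 2, and a fit with 1 library in an arm takes it to vary like the other group. At an unadjusted p of 0.05, receptor genes higher numbered 1 in the main fit, where 3.26% of all genes were, but 0 with limma-voom (3.04%). Those lower numbered 4 in the main fit, where 5.61% of all genes were, and 4 with limma-voom (5.79%). Both counts moved when 1 library was left out, and so did the shares over all genes. The median log2 fold change was -0.11, but -0.19 without a filter on low counts, -0.21 with DESeq2 and -0.26 to -0.039 when 1 library was left out (without Rest pKO 1 and without Rest pKO 2). The fit without a filter and DESeq2 also take in more genes of low counts (78 receptor genes in place of 33). For the other moves the cause was not tested. Without the filter, 9 of 78 receptor genes had groups that did not overlap with Rest pKO higher and 19 with Rest pKO lower, where all genes gave 19.5% and 20.1%. With a replicate block the median was -0.11. At an unadjusted p of 0.05 that fit gave 1 receptor gene higher and 4 lower, where 4.21% and 8.59% of all genes were. Its lowest adjusted p of a receptor gene was 0.173 by edgeR, so the block changed no call.

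Of 322 values of 25 named receptor genes under the alternatives, 312 kept their direction and their side of the threshold, 3 passed it (-4.49 and -4.14 for *Grm6*, -2.57 for *Gria1*) and 7 changed sign, each when 1 library was left out. Over the 4 fits that leave out 1 library, *Gabra4* ranged from -0.99 to 0.10, *Glrb* from -0.45 to 0.26, *Chrm3* from -0.0020 to 0.24, *Chrnb2* from -0.082 to 0.64, *Htr5b* from -0.039 to 1.21 and *Grik1* from -0.17 to 0.60, and none of these passed the threshold in any of them. *Chrm1* ranged from 0.48 to 1.90, *Gria1* from -3.005 to -0.43 and *Grm6*, in the 3 of these fits that gave it a value, from -7.12 to -3.16. Of the receptor genes under 20 counts, 14 at 0 had no test, and among the 40 with 1 to 19 counts none was called without the filter or by DESeq2.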

Other observations

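Markers of cell types not named beside a result were summed as well. Duct markers had 3 of 9 tested genes with a log2 fold change above 0 (1162, 985, 1259 and 1090 CPM in control 1, control 2, Rest pKO 1 and Rest pKO 2), endothelium 6 of 6 (348, 442, 506 and 508 CPM), smooth muscle 4 of 5 (63.9, 116, 86.1 and 122 CPM) and Schwann cells 7 of 7 (30.8, 33.5, 43.5 and 43.2 CPM). Macrophages and leukocytes had 8 of 10 below 0 (383, 350, 290 and 384 CPM), red cells 5 of 5 (35.5, 141, 27.2 and 25.5 CPM) and gut, stomach and liver 5 of 6 (670, 162, 269 and 319 CPM), where control 1 or control 2 stood highest for red cells and for gut, stomach and liver.

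Of acetylcholine genes 3 were tested, 1 above 0 and 2 below, and none had an unadjusted p under 0.05. *Slc5a7*, the choline transporter, was counted 15, 16, 18 and 8 times, *Bche*, which breaks down choline esters, 599, 610, 822 and 376 times, and *Ache*, which breaks acetylcholine down, 1, 17, 9 and 20 times.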
